A study of Glycine max with 4 samples.

Results

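Leaves of 2 soybean (Glycine max) lines were compared by RNA-seq in the absence of drought, so that each gene model shows how far the lines differed before any stress. PI 567690 carries the label drought tolerant and Pana the label drought susceptible, and the series sets them apart by wilting of the canopy. The 2 groups compared are control plants of each line, and both were leaf tissue of the R2 reproductive stage from plants in pots of soil and sand. Each group is represented by 3 libraries, called biological replicates in the design text of the series, although the labels do not say which plants were pooled into them. Drought libraries of the same lines, 3 per line from plants stressed for 15 days, entered the estimate of the spread and served as a second readout. The values are FPKM (reads scaled by gene length and by library depth), and in bulk leaf RNA a lower value can mean fewer cells of a type or less RNA per cell, which cannot be told apart. Tested were all gene models with at least 1 FPKM in 3 or more of the 6 control libraries, which was met by 29902 of the 54175 gene models (55.2%).

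Canopy wilting is the drooping of leaves as soil water runs out, and soybean lines differ in how early it sets in. A difference in transcript level between inbred lines grown alike can come from sequence variants in or near the gene itself or from a regulator elsewhere in the genome. Leaf transcript levels also follow light, time of day and leaf age. The files do not pair the Glyma identifiers with gene names and none of them matched the RefSeq name table for Glycine_max_v4.0, so gene models appear by identifier, no function is given, and leaf marker genes were not checked.

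The control libraries were not equally similar or equally deep. Among the tested gene models the 3 PI 567690 libraries correlated with each other at r = 0.97 to 0.987 (log2 scale, across gene models, which are not independent), and the Pana libraries at 0.814 to 0.963. Pana control library 1 stood apart, with r = 0.857 and 0.814 to the rest of its group. The median SD of a gene model on the log2(FPKM + 1) scale was 0.438 in Pana and 0.137 in PI 567690 (n = 3 each). In 85.7% of gene models the spread was wider in Pana. The worth of 1 read, taken from the steps in low values, put Pana control library 1 at 50.5% and PI 567690 control library 1 at 50.3% of the depth of the deepest library in the table. Gene models with a mean of 1 to 2 FPKM had a median of 19 reads behind them in Pana control library 1, and 36 to 91 reads elsewhere among the controls. These reads were computed from FPKM and depth, and PI 567690 control library 1, of similar depth, had a median of 44. Beyond the control group, Pana drought library 3 correlated at 0.918 to 0.934 with the PI 567690 controls and at no more than 0.865 within its own group, and PI 567690 drought libraries 2 and 3 were nearly alike (r = 0.994). Counts of calls are given with and without these libraries where they moved by more than 1.5 times.

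Under control conditions 4823 of the 29902 gene models differed between the lines (16.1% of those tested; limma, Benjamini-Hochberg adjusted p under 0.05). Of these, 3783 were higher in PI 567690 (12.7%) and 1040 were lower (3.48%). The higher gene models had a median log2 difference of 1.37 (quartiles 1.04 and 1.94), and their median level was 1.1 FPKM in Pana and 5.32 FPKM in PI 567690. The lower ones had a median of -1.52 (quartiles -2.21 and -1.14), with 13.9 FPKM in Pana and 2.57 FPKM in PI 567690. Differences of at least 2 on the log2 scale were found in 864 higher and 314 lower gene models, and differences of at least 4 in 78 and 33. In 99.6% of the calls the 3 libraries of one line lay fully above those of the other. The libraries of the lines were likewise free of overlap in 28.8% of all tested gene models in the direction of PI 567690 and in 12.5% in that of Pana.

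**Figure D1:**
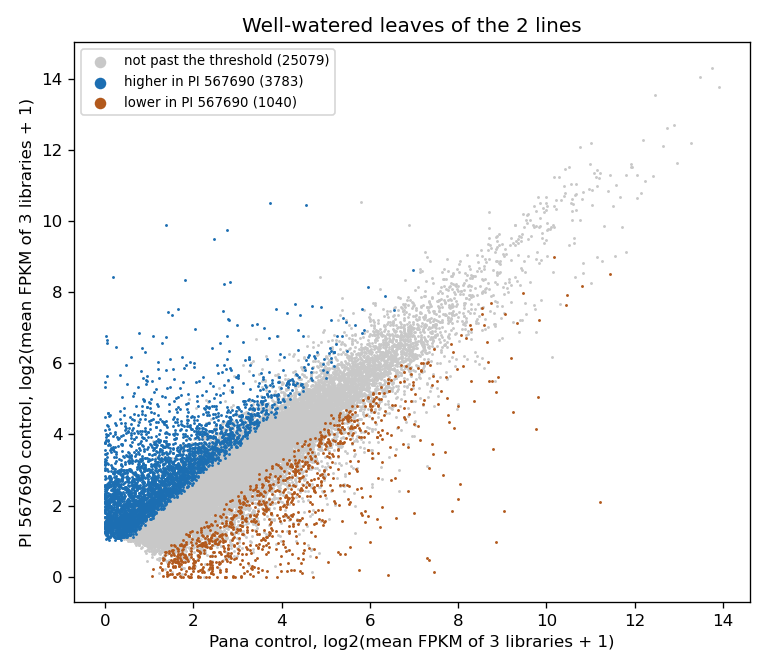
Each point is 1 of the 29902 tested gene models, with the level in Pana control on the horizontal axis and in PI 567690 control on the vertical axis, both as log2 of the mean FPKM of 3 libraries plus 1. The 3783 gene models higher in PI 567690 crowd at low Pana levels, and the 1040 lower ones spread over a wider range of levels.

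The filter itself admitted some of these gene models only through the line in which they were high. Exactly the 3 PI 567690 libraries reached 1 FPKM in 1645 gene models, of which 1367 were called, and exactly the 3 Pana libraries did so in 358, of which 241 were called. Such gene models had to differ. Among the 21633 gene models at or above 1 FPKM in all 6 control libraries, 1978 were called (9.14%), 1330 higher and 648 lower in PI 567690. After scaling of the libraries to an equal median ratio this balance turned to 871 higher and 1363 lower. At the edge of the filter, gene models with 3 libraries at 1 FPKM had a median mean of 1.26 FPKM, and the 1623 with 2 such libraries, which were not tested, had 0.832 FPKM.

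The number of calls moved with single libraries. Leaving out Pana control library 3 gave 7273 calls. The count was 2681 when PI 567690 control library 2 was left out and 2772 when library 3 was. Without Pana control library 1, the one that stood apart, 4280 gene models were called, 3222 of them higher, and 3671 of the calls with all libraries were kept in the same direction. With the 6 control libraries alone 4910 were called, 3998 of them shared with the full fit. Because the labels name no plants, the p-values refer to the spread among libraries, which may be in part technical.

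The excess of higher calls depended on the scale. The median log2 difference of all tested gene models was 0.23. Scaling to an equal median ratio brings this median near 0 by construction (0.01), and on the same 29902 gene models it gave 3045 higher and 1858 lower calls. Higher calls thus made up 78.4% of the calls on the deposited scale and 62.1% after scaling. With the filter applied to the scaled values as well, which admitted 30296 gene models, they made up 61.3% (3046 higher and 1919 lower). Pana control library 1 had the lowest median level of the tested gene models, 3.87 FPKM, against 4.63 and 5.8 FPKM in the other Pana controls and 5.8 to 6.04 FPKM in those of PI 567690. Of all gene models, 24623, 27035 and 28506 reached 1 FPKM in Pana control libraries 1, 2 and 3. In the PI 567690 controls 29788, 29819 and 29707 did so. The part of this difference in the excess of higher calls was not tested. For the gene models called higher, the Pana controls had medians of 0.721, 1.07 and 1.31 FPKM in libraries 1, 2 and 3, and the PI 567690 controls 4.94, 5.55 and 5.43 FPKM. These medians describe gene models that were chosen on the same libraries, so the gap between the lines is set by that choice.

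The direction of the calls differed with abundance. Of the 100 gene models with the highest mean over the control libraries (915 FPKM or more), limma called 0 higher and 3 lower in PI 567690 (0 and 7 at an unadjusted p under 0.05). Among the next 900 (93.3 to 903 FPKM) 20 were higher and 59 lower. Among the next 9000 (down to 9.63 FPKM) 625 were higher and 427 lower, a balance that turned to 437 higher and 754 lower after scaling. Of the remaining 19902, 3138 were higher and 551 lower (2592 and 1017 after scaling). A filter at 1 FPKM can force calls among such low gene models. Restricted to the gene models at or above 1 FPKM in all 6 control libraries, it held 809 higher and 198 lower calls among 11940, and 533 and 563 after scaling, so that with this restriction the balance in the rarest class also turned with the scaling. With the same restriction lower calls remained in excess among the next 900 (18 higher and 58 lower, and 14 and 83 after scaling). The share called was 3%, 8.78%, 11.7% and 18.5% from the most to the least abundant class, and the median SE was 0.709, 0.443, 0.332 and 0.303. The 100 most abundant gene models took 37.3%, 34.9% and 25.7% of all FPKM in Pana control libraries 1, 2 and 3, and 31.4%, 31.9% and 32.8% in the PI 567690 controls, so the lines overlapped in this share. FPKM is relative, and the part of this share in the results was not tested.

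**Figure D2:**
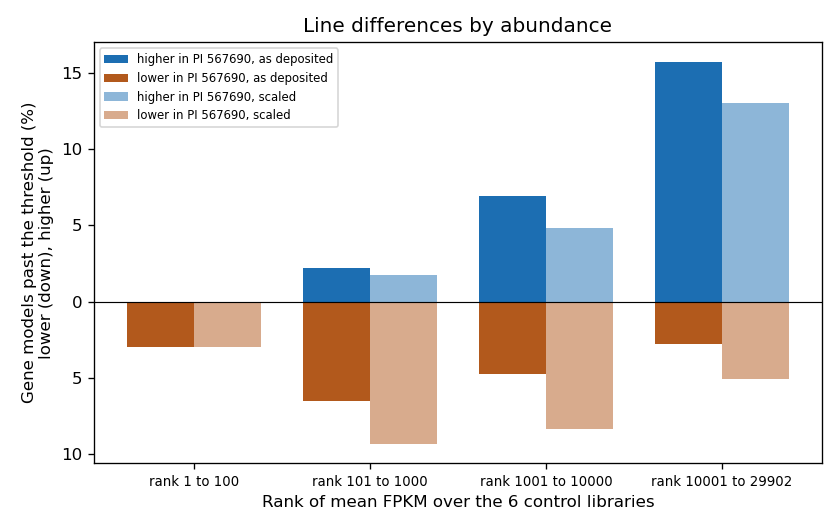
Bars give the percentage of gene models past the threshold in 4 classes of abundance, ranked by mean FPKM over the 6 control libraries, upward for higher and downward for lower in PI 567690, on the deposited scale (dark) and after scaling to an equal median ratio (pale). Lower calls outnumber higher ones in the 2 most abundant classes, higher calls outnumber lower ones in the rarest class on both scales, and the class of rank 1001 to 10000 turns with the scaling. The rarest class turns as well (533 higher and 563 lower after scaling) when only gene models at or above 1 FPKM in all 6 control libraries are counted, which the bars do not show.

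The largest differences were close to complete. Glyma11g10460 was at 934, 1020 and 876.6 FPKM in the PI 567690 controls and at 0.8406, 1.112 and 2.884 FPKM in the Pana controls. The means were 944 ± 72.2 and 1.61 ± 1.11 FPKM (SD, n = 3). On the log2(FPKM + 1) scale the difference was 8.58 ± 1.85 (SE; limma adjusted p = 0.0083). This SE takes in the spread of the drought libraries, and with the 6 control libraries alone it was 0.32 (limma adjusted p = 0.00011). Glyma11g10460 ranked 179th in mean level among the tested gene models. Under drought it overlapped between the lines, Pana holding 0.624, 18.04 and 591.2 FPKM and PI 567690 holding 2.01, 161 and 138.5 FPKM.

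Glyma17g37900 was at 371.4, 354.1 and 295.6 FPKM in the PI 567690 controls and below 0.2 FPKM in each Pana control (0.1837, 0.1418 and 0.08824 FPKM). Its log2 difference was 8.22 ± 1.13 (SE; limma adjusted p = 0.000726). In the drought libraries of PI 567690 it stood at 0.6533, 2.421 and 2.466 FPKM, far under the level of the controls of that line. Among the Pana drought libraries only library 3 held more than 1 FPKM (0.2546, 0.1434 and 55.73 FPKM).

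In the other direction, Glyma09g15450 was at 5730, 1044 and 312.8 FPKM in the Pana controls and at 4.976, 3.322 and 1.598 FPKM in those of PI 567690. The Pana libraries spread widely, yet the lowest of them stood far above all of PI 567690 (log2 difference -8.25 ± 0.95 SE; limma adjusted p = 0.000304). This separation was also seen under drought, Pana holding 197.6, 786.1 and 834.1 FPKM against 36.79, 7.669 and 9.049 FPKM for PI 567690, where the log2 difference of -5.09 did not pass the threshold (limma adjusted p = 0.0601).

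Glyma02g37990 was at 331.4, 232.9 and 821.4 FPKM in the Pana controls and at 2.255, 0.6074 and 0.08257 FPKM in the PI 567690 controls (log2 difference -7.81 ± 0.72 SE; limma adjusted p = 0.000102). Under drought the order of the lines was not kept: Pana held 1.498, 10.19 and 15.5 FPKM and PI 567690 held 13.62, 36.83 and 37.22 FPKM. These 4 gene models kept their direction and call in each of the 26 alternative settings. All 4 were also the largest differences among the 1000 most abundant gene models (93.3 FPKM or more). This follows from the scale, since with 1 FPKM added a difference of this size needs a high level in one line.

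**Figure D3:**
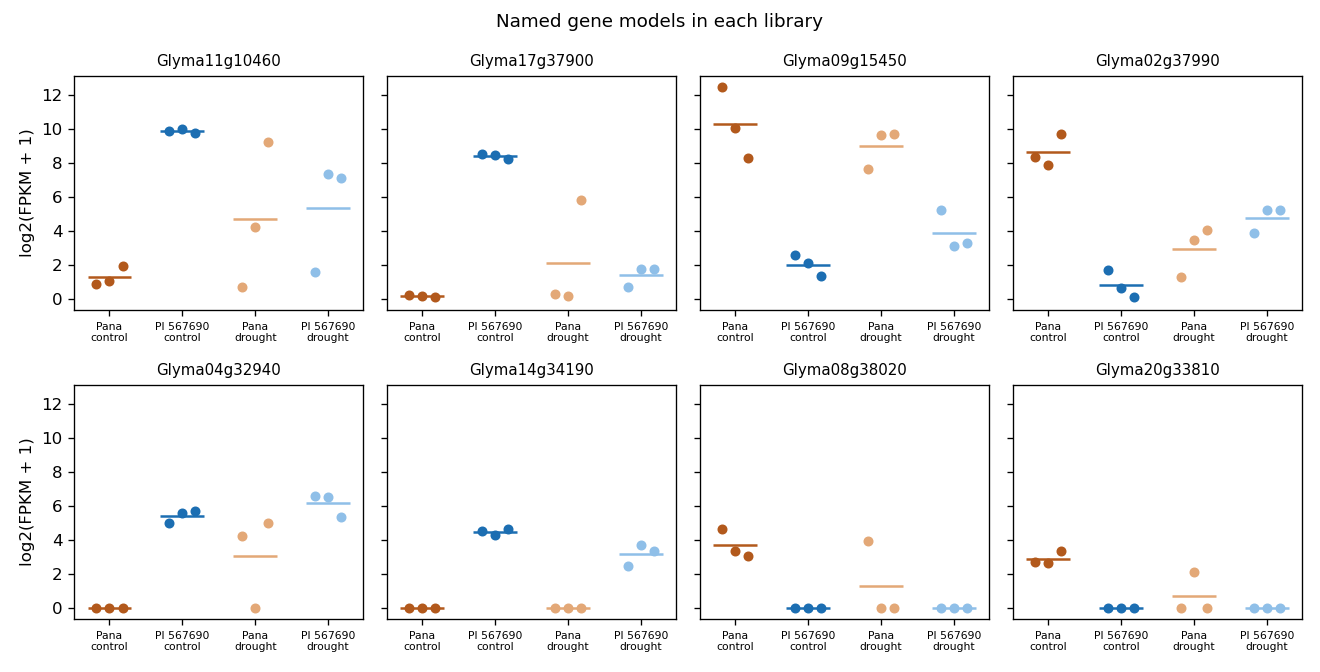
Each panel shows 1 of the 8 named gene models and each point 1 library, as log2(FPKM + 1), with a line at the mean of the 3 libraries of a group. The control groups do not overlap in any panel, whereas the drought groups overlap in the panels of Glyma11g10460, Glyma17g37900, Glyma02g37990, Glyma08g38020 and Glyma20g33810.

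Some gene models were listed at 0 in every control library of one line. Of the 29902 tested gene models, 69 were listed at 0 in all 3 Pana controls and at or above 1 FPKM in all 3 PI 567690 controls. The reverse pattern was found in 20. Most of them were low where they were expressed: the lowest of their 3 libraries had a median of 2.1 FPKM in the first set and of 2.09 FPKM in the second. A listed 0 can also be a failed estimate, and the part of depth in these zeros was not tested. Over all tested gene models, 3.03%, 0.689% and 0.699% were listed at 0 in Pana control libraries 1, 2 and 3. In the PI 567690 controls these shares were 0.344%, 0.177% and 0.321%. The excess of the first set cannot be told apart from this general excess of zeros in Pana. With a level below 0.1 FPKM in place of 0 the sets held 188 and 37 gene models. Without Pana control library 1 the second set held 36.

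Glyma04g32940 was at 31.13, 47.15 and 52.04 FPKM in the PI 567690 controls and was listed at 0 in the Pana controls (limma adjusted p = 0.00302). It was not silent in Pana throughout, since the drought libraries of that line held 17.89, 0 and 31.31 FPKM. Glyma14g34190 was at 21.88, 18.42 and 24.07 FPKM in the PI 567690 controls and at 4.556, 11.96 and 9.371 FPKM under drought, and it was listed at 0 in all 6 Pana libraries (limma adjusted p = 1e-05 under control and 0.000199 under drought). Among those listed at 0 in the PI 567690 controls, Glyma08g38020 was at 24.7, 9.533 and 7.414 FPKM in the Pana controls (limma adjusted p = 0.0106), and under drought it was listed at 0 in all of PI 567690 and held 14.26, 0 and 0 FPKM in Pana. Glyma20g33810 was at 5.64, 5.246 and 9.275 FPKM in the Pana controls (limma adjusted p = 0.00147). Under drought it lay between 0 and 3.395 FPKM in Pana and did not exceed 0.03664 FPKM in PI 567690.

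The drought libraries were read for the same gene models. Of the 69 gene models listed at 0 in the Pana controls, 6 were also listed at 0 in all 3 Pana drought libraries, 32 were above 0 in 1 or 2 of them and 31 in all 3. Pana drought libraries 1, 2 and 3 held 43, 40 and 54 of them above 0, and 21, 9 and 17 of them at or above 1 FPKM, the level that defined expression. Of the 20 listed at 0 in the PI 567690 controls, 8 were at 0 in the 3 drought libraries of that line, which held 0, 2 and 3 of them at or above 1 FPKM. A pattern of 0 in all 6 libraries of one line and at least 1 FPKM in all 6 of the other was found for 3 gene models expressed in PI 567690 and 1 expressed in Pana.

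The line difference was then read in the drought libraries, which are separate from the control libraries and share with them only the estimate of the spread. Under drought 92 of the 29902 gene models differed between the lines (0.308%; limma adjusted p under 0.05), 64 higher (0.214%) and 28 lower (0.0936%) in PI 567690, and 1843 (6.16%) had an unadjusted p under 0.05. Called in the same direction under both conditions were 47 higher and 22 lower gene models, which is 1.43% of the control calls and 75% of the drought calls, and 8 were called in opposite directions. The drought count was 46 or 49 without PI 567690 drought library 2 or 3 and 49 with these near-identical libraries averaged, and leaving out Pana control library 1 gave 146 and leaving out Pana drought library 1 gave 139. Without Pana drought library 3 it was 119. The shared calls in these settings numbered 42, 45, 45, 82, 110 and 89, or 56.2% to 91.8% of the drought calls. With the filter on all 12 libraries, 74 of 127 drought calls were shared (58.3%). With no filter they were 88 of 170 (51.8%), and with library weights, described below, 3039 of 8287 (36.7%). For comparison, 16.1% of all tested gene models were called under control. Both tests use the same spread of each gene model, so a gene model with a small spread is favoured in both. Of the 3783 gene models higher in PI 567690 under control, 50.2% were higher under drought too, against 58.7% of all tested gene models. Of the 1040 lower ones 47.3% were lower under drought, against 41.2% of all tested. The median log2 differences of these higher and lower gene models under drought were 0 and 0.04, beside 0.06 for all tested. Under control they were 1.37 and -1.52, but these gene models were chosen on the control libraries. A smaller size in other libraries follows in part from that choice.

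The shares of equal sign moved with single drought libraries in both directions. Without Pana drought library 1, 41.2% of the higher gene models were higher under drought (63.2% of all tested), and without PI 567690 drought library 1, 57.3% were (52.4% of all tested). Without Pana drought library 3, 66.3% of the higher gene models were higher under drought (50.9% of all tested) and 52% of the lower ones were lower (49% of all tested). Pana drought library 3 and PI 567690 drought library 1 were also left out together, a pair chosen after seeing the data. The shares were then 69.6% (47.4% of all tested) and 55.5% (52.5%), and the median log2 differences were 0.2 and -0.07. The test of whether the line difference itself changed with drought passed in 1954 of all tested gene models (6.53%), negative in 1512 (5.06%) and positive in 442 (1.48%; limma adjusted p under 0.05). A lack of overlap in the same direction under drought was found for 445 of the higher gene models (11.8%, against 10.5% of all tested) and 103 of the lower ones (9.9%, against 3.3%).

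The drought libraries were placed on the scale between the line means under control, where 0 is the level of the Pana controls and 1 that of the PI 567690 controls. For the gene models higher in PI 567690, the 3 PI 567690 drought libraries had median positions of 0.292, 0.486 and 0.479. Pana drought libraries 1 and 2 lay at 0.193 and 0.329, below the PI 567690 libraries 2 and 3, whereas Pana drought library 3 lay at 0.58, above all 3 libraries of PI 567690. For the gene models lower in PI 567690, the PI 567690 drought libraries had medians of 0.444, 0.56 and 0.538 and the Pana drought libraries 0.58, 0.266 and 0.596. In both sets the medians of the drought libraries overlapped between the lines and lay between the control levels rather than at the level of their own line. The gene models were chosen on the control libraries, which sets the ends of this scale, so only the positions of the drought libraries relative to each other are independent of that choice.

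**Figure D4:**
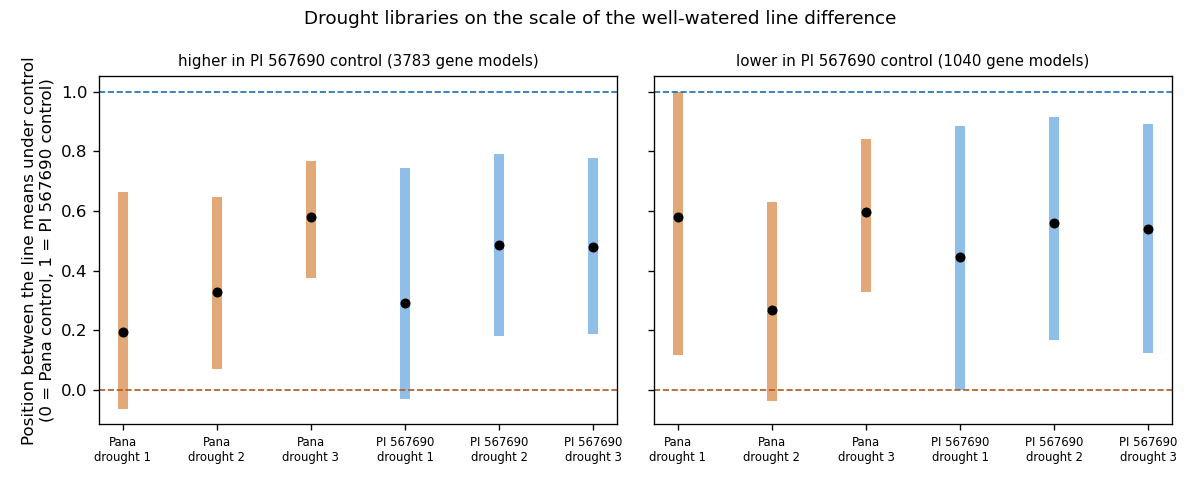
Black points give the median and bars the quartiles, over the gene models called under control, of the position of each drought library on a scale where 0 is the mean level of the Pana controls and 1 that of the PI 567690 controls. The medians run from 0.193 to 0.58 for the higher gene models and from 0.266 to 0.596 for the lower ones, with Pana drought library 3 the highest in each panel.

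Line differences were found on every chromosome and were in places packed together. The first digits of a Glyma identifier give the chromosome and the rest the order along it. The share of tested gene models called lay between 14.5% (chromosomes 7 and 10) and 18.8% (chromosome 17). The next tested gene model along the chromosome was also higher in PI 567690 after 16.4% of the higher gene models, against 12.6% of all placed ones. After a lower gene model it was also lower in 6.88%, against 3.46%. Runs of 3 or more neighbours called in the same direction numbered 84 among the higher gene models and 5 among the lower ones. In both directions together there were 89, and 73 after scaling to an equal median ratio. Higher calls were the more frequent (12.6% against 3.46%), so more runs arise among them without any clustering. The number of runs to be met without clustering was not computed, so these counts do not show packing by themselves. The longest runs were 10 higher gene models in a row on chromosome 12 and 7 lower ones in a row on chromosome 17, whose median log2 differences were 2.64 and -2.53. The 10 on chromosome 12 had a median of the group means of 0.402 FPKM in Pana control and 7.25 FPKM in PI 567690 control, beside 1.67 and 0.706 FPKM under drought. For the 7 on chromosome 17 these medians were 8.92 FPKM in Pana and 0.469 FPKM in PI 567690 under control, and 5.4 and 1.78 FPKM under drought, so that the order of the lines was the same in both conditions.

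In windows of 50 neighbouring tested gene models, a median of 6 were higher and 2 were lower in PI 567690. Windows with 20 or more higher ones occurred on 3 chromosomes only. The densest held 28 of 50 on chromosome 6, followed by 24 of 50 on chromosome 9 and 21 of 50 on chromosome 12. These 3 stretches were chosen for their density, after the values were seen, and carry no test. The called gene models run from Glyma06g43120 to Glyma06g43880, from Glyma09g35061 to Glyma09g35680 and from Glyma12g03290 to Glyma12g04050. Close neighbours can be copies of one another, and reads that fit several near-identical copies may have been shared out among them in the authors' processing, so the values of single members are uncertain.

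The levels in each library were read for the 3 stretches. On chromosome 6 the 28 gene models had median levels of 5.13, 4.1 and 7.96 FPKM in the PI 567690 controls and of 1.22, 0.324 and 0.201 FPKM in the Pana controls, with log2 differences from 1.13 to 3.9. Their drought medians lay in the reverse order, 0.173, 0.998 and 0.948 FPKM in PI 567690 and 1.84, 1.74 and 1.83 FPKM in Pana. On chromosome 9 the 24 gene models had medians of 11.8, 11.3 and 10.7 FPKM in the PI 567690 controls and of 1.46, 0.867 and 0.544 FPKM in the Pana controls. Their drought medians were 0.333, 1.16 and 1.15 FPKM in PI 567690 and 1.01, 1.11 and 2.77 FPKM in Pana. On chromosome 12 the 21 gene models had medians of 7.66, 7.42 and 9.54 FPKM in the PI 567690 controls and of 1.04, 0.581 and 0.271 FPKM in the Pana controls. Under drought these were 0.125, 1.53 and 1.41 FPKM in PI 567690 and 1.12, 1.43 and 4.1 FPKM in Pana. The drought medians of the lines did not overlap on chromosome 6 and overlapped on chromosomes 9 and 12, where Pana drought library 3 was the highest drought library. The log2 level under drought was higher in PI 567690 for 3 of 28, 5 of 24 and 7 of 21 gene models. In each stretch the PI 567690 controls stood above the other 9 libraries. The gap to the Pana controls is set by the choice of called gene models, and the PI 567690 controls entered that choice as well. Under drought limma called 0 of these gene models between the lines, against 0.308% of all tested. With so small a share, 0 calls do not set the stretches apart. At an unadjusted limma p under 0.05 there were 11 of 28, 3 of 24 and 6 of 21, against 6.16% of all tested. Of these gene models 13 of 28, 8 of 24 and 8 of 21 were below 1 FPKM in every Pana control, so that the filter admitted them through PI 567690 alone. After scaling to an equal median ratio, 27, 21 and 17 of them remained called under control in the same direction.

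**Figure D5:**
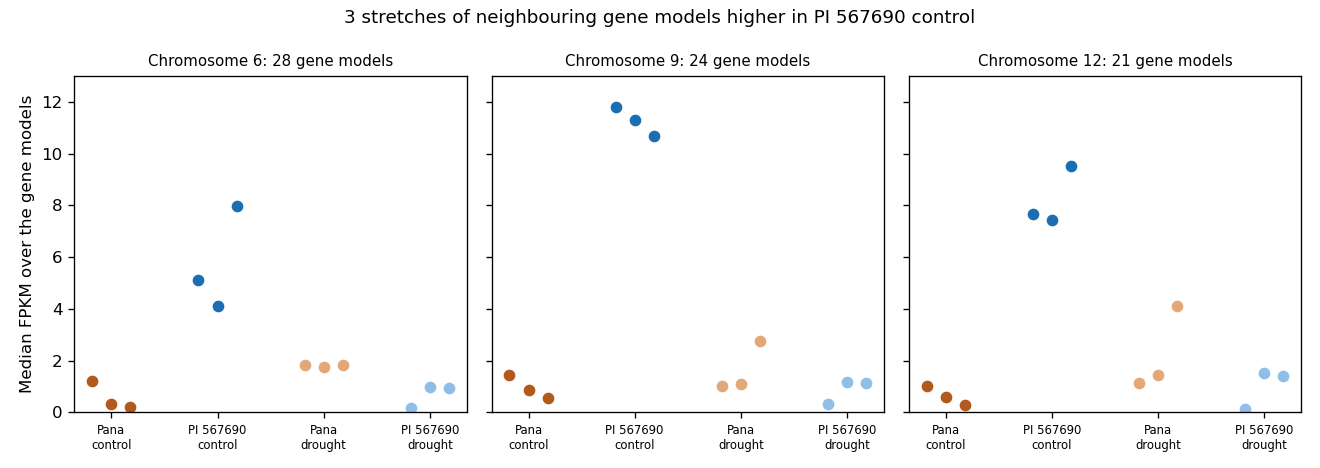
Points give, for each of the 12 libraries, the median FPKM over the gene models called higher in PI 567690 in 3 stretches of neighbouring gene models on chromosomes 6, 9 and 12. In all 3 panels the PI 567690 control libraries lie above the other libraries, the lowest of them at 4.1, 10.7 and 7.42 FPKM. The gap to the Pana controls is set by the choice of called gene models.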

How the data were processed

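RNA-seq of leaf RNA was deposited as 1 table with 12 columns, 3 for each of 4 groups, assigned by the line, treatment and replicate number in their names. The unit is not named in the table. The values were taken as FPKM computed by the authors, because they are not whole, differ in their sums and show steps that depend on the gene. Per the submitters' processing notes, Cufflinks, Cuffdiff, TopHat 1.4.1 and FastQC were used, with the role of each unstated. For the build and gene annotation, the sources used here give nothing.

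Gene models were tested on log2(FPKM + 1), which understates the change of low genes, with limma 3.58.1 in R 4.3.3 (trend, 1 coefficient per group, 12 libraries, residual degrees of freedom 8, prior 3.56). The fit was tried on simulated data with the same spread in all groups, so this trial does not cover the unequal spread of the lines. Depths were taken from the steps in low values. With these depths, whole reads were recovered for 19233 (64.3%) of the tested gene models, within 0.06 reads. Of 54175 identifiers 0 matched the 59048 RefSeq genes, so the planned gene lists and marker checks could not be applied.

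Named gene models are the 2 largest differences in each direction past the threshold, above the median level and without overlap, also within the 1000 most abundant, and the 2 highest in each direction among those at 0 in one line. The comparison, rules and lists were chosen with earlier results of these data known. Alternatives covered libraries, scaling, filter, pseudocount, weights, block and threshold. Python 3.11.15, numpy 2.4.6, pandas 2.3.3 and matplotlib 3.10.9 were also used.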

Additional observations from a re-analysis of the deposited data

Results flagged for a closer look

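The line difference changed between control and drought in 1954 of the 29902 gene models (6.53%, limma test of the difference of the 2 line differences, adjusted p under 0.05), 1512 of them in the direction of lower PI 567690 levels and 442 in the other. The count was 980 to 1228 when Pana control library 2, PI 567690 control library 2 or 3 or any PI 567690 drought library was left out, 1181 with PI 567690 drought libraries 2 and 3 averaged, and 2067 without Pana drought library 3. Of the 8 named gene models, 2 passed this test. The log2 line difference of Glyma17g37900 changed by -8.91 ± 1.59 (SE; limma adjusted p = 0.00807), and that of Glyma02g37990 by 9.65 ± 1.02 (limma adjusted p = 0.00101). Both were named for a large difference under control, and the control libraries also enter this test, so the sizes are not independent of how they were named. For Glyma11g10460 the change of -7.94 ± 2.61 did not pass (limma adjusted p = 0.104).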

How the results depend on the processing

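The number of gene models called lay between 2681 and 7273 when 1 of the 12 libraries was left out. With gene models limited to a mean of 5 FPKM or more (16372 tested) 1655 were called, and 2418 at an adjusted p under 0.01. With library weights by limma's gene-by-gene method, chosen after seeing the data because the default method did not converge and is not given, it was 15645. That method gave Pana control library 1 a weight of 0.0752 and Pana control library 2 a weight of 2.66. Pseudocounts of 0.1 and 0.25 FPKM gave 4314 and 4523, no filter 6417, averaging PI 567690 drought libraries 2 and 3 gave 4039, and leaving out Pana control library 1 with Pana drought library 3, also chosen after seeing the data, 6444. Higher calls outnumbered lower ones in each of these settings. All 8 named gene models were called in each setting run for them, except Glyma08g38020 at the threshold of 0.01 (adjusted p = 0.0106) and Glyma20g33810, which was not tested at a mean of 5 FPKM. Under drought 92 gene models were called, 312 and 296 without the pairs of libraries named here and below, and 8287 with library weights. The share of calls with the same sign under drought was 49.6%, and 43.7% to 64.3% with 1 library left out. It was 55.9% with library weights and 61.4% without Pana control library 1 and Pana drought library 3. Without Pana drought library 3 and PI 567690 drought library 1, a pair also chosen after seeing the data, it was 67.4%. Left out singly, these 2 libraries gave 64.3% and 56.2%. Runs of 3 or more neighbours numbered 89, 73 after scaling to an equal median ratio, and 23 at an adjusted p under 0.01. The gene models listed at 0 in Pana and in PI 567690 numbered 360 and 83 with the other line at or above 0.1 FPKM, 13 and 2 at 5 FPKM, and 188 and 37 with below 0.1 FPKM in place of 0. With 1 library left out they numbered 76 to 107 and 26 to 36. The causes were not tested, except that fewer gene models or libraries enter by construction.

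The replicate numbers did not clearly pair the control libraries: deviations of same-numbered control libraries correlated at 0.0197, 0.0251 and 0.0987. The highest values with another number were 0.0556, 0.0295 and 0.00109, so the same number gave the higher value for library 3 but not for 1 and 2. The drought libraries were not checked in this way. With the replicate number as a block 5323 gene models were called in 12 libraries and 3937 in the 6 control libraries, against 4823 and 4910 without it. Few reads stood behind the low range in Pana control library 1, with a median of 19 at a mean of 1 to 2 FPKM. PI 567690 control library 1, of similar depth (50.3% against 50.5% of the deepest library), had a median of 44. The reads were computed from FPKM and depth, so at similar depth the lower number reflects lower FPKM of these gene models in Pana control library 1. Why their FPKM was lower there was not tested.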
